A study of Mus musculus with 14 samples.

Results

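Mitosis genes were followed across 7 sorted mouse cell populations. The set holds 44 genes whose products act in M phase, from cyclins to cytokinesis factors, and its members are a list of gene symbols matched by Ensembl identifier to the 49583 genes of the deposited expression table. All 44 had a row. RNA was sequenced from 2 samples of each population, 14 in all. All animals were C57BL/6 mice of wild type genotype, and every sorted population was stated to be over 98% pure. Ter cells of the spleen (Ter-119+ CD45- Lin-, from tumour-bearing mice) are called spleen Ter here, and cells of the same gate from the liver of E14.5 embryos are called liver Ter. Control cells were CD45+ Ter-119- cells from the spleen of tumour-bearing mice. Bone marrow of wild type mice gave the hematopoietic stem cells (HSC, c-Kit+ Sca-1+ Lin-) and the common lymphoid progenitors (CLP, c-Kit+ Sca-1+ IL-7R+ Lin-). It also gave the megakaryocyte-erythroid progenitors (MEP, labelled FcγR low and CD34+) and the common myeloid progenitors (CMP, labelled FcγR low and CD34-), both c-Kit+ Lin- IL-7R- Sca-1-. Age, sex, tumour type and the number of animals behind a sample are not given in the labels used here. Nothing says that the 2 samples of a population came from separate animals, so the p-values below measure only the spread between these samples.

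Cells enter mitosis when cyclin A and cyclin B switch on the kinase Cdk1. Aurora and Polo kinases, condensins and topoisomerase II then reshape chromosomes, kinetochores tie them to spindle microtubules, and the spindle checkpoint holds back the anaphase-promoting complex (APC/C) until all are attached. The complex then marks securin and cyclin B for destruction, separase cuts cohesin, and the central spindle directs cytokinesis. Transcripts of most of these genes build up in G2 and M phase and are low in resting cells, so they are widely read as a sign of dividing cells. Early erythroid precursors divide while they build up hemoglobin, and they stop dividing before the nucleus is expelled. In sorted bulk samples, fewer cycling cells and less mitotic RNA per cell cannot be told apart.

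The deposited values are read here as means of 2 samples in FPKM, that is, sequenced fragments scaled to transcript length and to the library's total. The labels give no unit, and for Control, HSC and CLP this reading is an assumption. In 4 columns (CMP, MEP and both Ter populations) the low values fall on the steps that whole fragments give, and from these steps the 2 libraries behind each mean were recovered, with depths of 13413530 to 28537889 fragments. The deeper library is called A and the other B. For Control, HSC and CLP no such steps exist (at most 0.0703% of low values were whole, against at least 90.9% in the other 4), so those 3 columns are used as the authors' means with no error, how they were made is not given in the sources used here, and comparisons with them were not tested. Of the members, 43 were recovered in all 8 libraries. Mki67 was recovered in spleen Ter and CMP and has only the authors' mean in liver Ter and MEP, so it was not tested.

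The labels were set against marker genes. In the population labelled MEP, the erythroid genes Gata1 and Klf1 had means of 0.928 and 1.26 FPKM and the megakaryocyte gene Itga2b 2.01, whereas the neutrophil granule genes S100a9, Ngp and Camp had means of 84794, 34069 and 14922 FPKM. Cd34 was at 0.0694 FPKM there although the label gives a CD34+ gate, and at 29.7 FPKM in CMP, where the label gives a CD34- gate. The name is therefore used below only as "the population labelled MEP". Liver Ter carried high erythroid markers, such as Klf1 at 319 and 315 FPKM in libraries A and B. The 2 spleen Ter libraries differed in their markers: Klf1 stood at 17.5 and 0.584 FPKM and Alas2, the first enzyme of heme synthesis, at 366 and 32.3, while the macrophage gene C1qb stood at 54.6 and 414. B cell genes were present in both (Cd79a at 555 and 626 FPKM), as were T cell genes (Cd3d at 85.0 and 98.6). Spleen Ter, HSC and CLP also held neutrophil RNA, with S100a9 means of 10967, 5728 and 7171 FPKM. CMP had the neutrophil precursor genes Elane, Mpo, Prtn3 and Ctsg at means of 2673, 1753, 1131 and 1001 FPKM, and all 8 neutrophil markers with recovered libraries were over 2-fold higher in CMP A than in B (S100a8 at 1008 and 225 FPKM). How far such other cells bear on the results below was not tested.

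Before the expression values, the promoters of the members are shown, because mitotic genes are known to share elements there. The cell cycle genes homology region (CHR, core letters TTTGAA) is bound by the DREAM and MuvB complexes, and CCAAT boxes are bound by the trimeric factor NF-Y. RefSeq promoter windows (GRCm38.p6, 250 bases before to 50 after the start site, both strands searched) were found for 37 of the 44 members, in 39 windows. TTTGAA or its reverse complement TTCAAA occurred in 30 of the 39 windows (76.9%), against 17.9% of all 32851 windows. CCAAT or its reverse complement ATTGG occurred in 29 of 39 (74.4%), against 37.4% of all windows, and at least 2 matches in 18 (46.2%), against 11.7%. TTTGAA and CCAAT together occurred in 26 windows (66.7%, against 6.95%). A further CHR form, TTCGAA, was in 3 windows (7.69%, against 1.56%). E2F-type letters were rare in the members' windows: TTTCGCGC was in 1 (2.56%, against 0.323%) and TTTGGCGC in 1 (2.56%, against 0.514%). The 34 windows of 29 DNA replication genes, which act in S phase, held TTTGAA in 4 (11.8%), CCAAT in 20 (58.8%), TTTCGCGC in 7 (20.6%) and TTTGGCGC in 5 (14.7%). In the 106 windows of 93 further mitosis genes that are not members, TTTGAA occurred in 38 (35.8%), CCAAT in 62 (58.5%) and both in 26 (24.5%). Matches that overlap on opposite strands were counted separately. Ect2 and Prc1 have 2 windows each that overlap, and a site in both windows was counted once in each. No window was found for Aurkb, Ccna2, Incenp, Kif20a, Smc4, Spc24 and Tpx2. A match is a description of the letters and not a bound site.

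The 120 bases before the start site are printed 5′ to 3′ in the direction of transcription for 5 members that hold both motifs there and for Pttg1. The window of Pttg1 holds neither, and it was the only tested member called higher in spleen Ter than in liver Ter. They come from RefSeq, build GRCm38.p6. Capitals mark TTTGAA and CCAAT on either strand (TTCAAA and ATTGG on the other).
Ube2c, chr2:164769809-164769928, plus strand: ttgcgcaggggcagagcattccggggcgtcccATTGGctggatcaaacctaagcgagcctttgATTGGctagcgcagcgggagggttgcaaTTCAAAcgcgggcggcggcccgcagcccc
Cdc20, chr4:118437344-118437463, minus strand: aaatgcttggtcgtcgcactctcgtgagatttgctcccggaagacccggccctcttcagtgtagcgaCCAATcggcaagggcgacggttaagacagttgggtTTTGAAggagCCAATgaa
Cdk1, chr10:69352913-69353032, minus strand: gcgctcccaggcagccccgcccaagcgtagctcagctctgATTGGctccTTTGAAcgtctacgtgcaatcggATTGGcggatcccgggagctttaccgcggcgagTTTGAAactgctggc
Top2a, chr11:99024190-99024309, minus strand: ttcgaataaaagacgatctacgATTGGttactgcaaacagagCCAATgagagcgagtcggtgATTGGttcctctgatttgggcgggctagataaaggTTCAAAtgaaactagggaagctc
Kif11, chr19:37376262-37376381, plus strand: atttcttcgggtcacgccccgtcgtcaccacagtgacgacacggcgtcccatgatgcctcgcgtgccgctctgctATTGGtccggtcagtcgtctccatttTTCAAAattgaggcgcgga
Pttg1, chr11:43425982-43426101, minus strand: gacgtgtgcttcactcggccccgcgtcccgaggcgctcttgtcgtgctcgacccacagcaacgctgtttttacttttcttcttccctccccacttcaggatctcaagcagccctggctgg
The last base printed lies just before the start site, at position -1. The CHR core nearest the start began at position -29 in Ube2c, -18 in Cdc20, -15 in Cdk1, -23 in Top2a and -19 in Kif11, and in each of these promoters at least 1 CCAAT box lay upstream of it. Over all member windows 20 of 39 TTTGAA matches (51.3%) lay within the 50 bases after the start site, against 11.2% of the 6737 matches in all windows. Of the 63 CCAAT matches of the members, 23 lay between positions -100 and -51 and 18 between -50 and -1. Besides Pttg1, the windows of Birc5, Mad2l1, Ncaph, Nuf2 and Nusap1 held neither motif. The Pttg1 window lies wholly inside the annotated gene, whose 5′ end is at 43426251, and the sequence before that end was not searched.

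**Figure D1:**
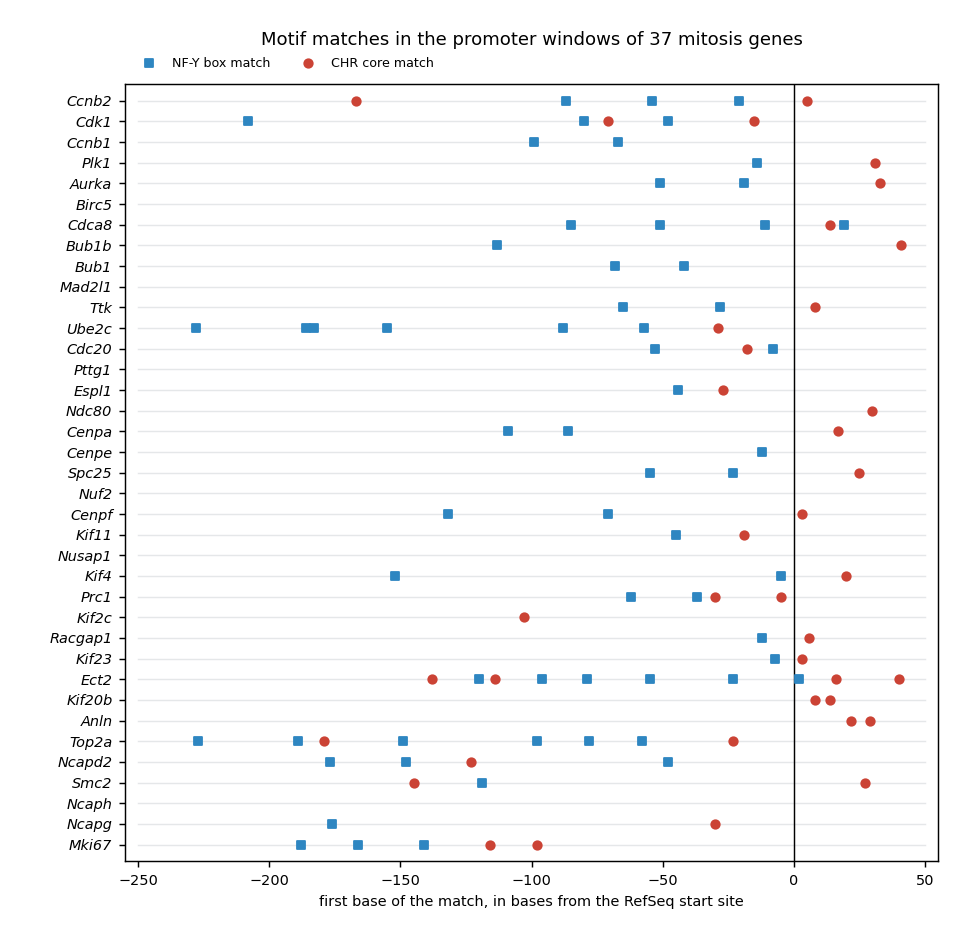
Positions of motif matches in the promoter windows of the 37 members that have one, each row a gene, the horizontal axis in bases from the RefSeq start site. Squares mark the box bound by NF-Y and circles the CHR core, on either strand, and genes with more than 1 window show the matches of all of them. CHR cores cluster near or just after the start (20 of 39 within the 50 bases after it) and NF-Y boxes before it.

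Levels of the members separated the populations into 2 groups. The median over the 44 genes was 31.3 FPKM in liver Ter, 27.7 in CLP, 23.1 in the population labelled MEP, 18.7 in HSC and 16.7 in CMP. It was 2.57 FPKM in spleen Ter and 1.77 in Control. Liver Ter held the highest mean of the 7 populations for 25 members and CLP for 16, whereas over all 16297 genes with at least 1 FPKM in any population liver Ter was highest for 7.60% and CLP for 18.9%. Control held the lowest mean for 32 members and spleen Ter for the other 12. The exceptions at the top were Pttg1, highest in spleen Ter, and Kif20b and Racgap1, highest in the population labelled MEP. These orders set the columns of Control, HSC and CLP, whose making is not given in the sources used here, beside the others. They are given on the deposited scale only, in which globin transcripts made up 47.6% of all FPKM in liver Ter and 13.7% in spleen Ter. By library, the members' median was 3.34 and 1.55 FPKM in spleen Ter A and B, at 28.2 and 29.2 in liver Ter, 21.6 and 24.2 in the population labelled MEP, and 15.0 and 18.0 in CMP. The library medians of spleen Ter lay below every library median of the other 3 populations.

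**Figure D2:**
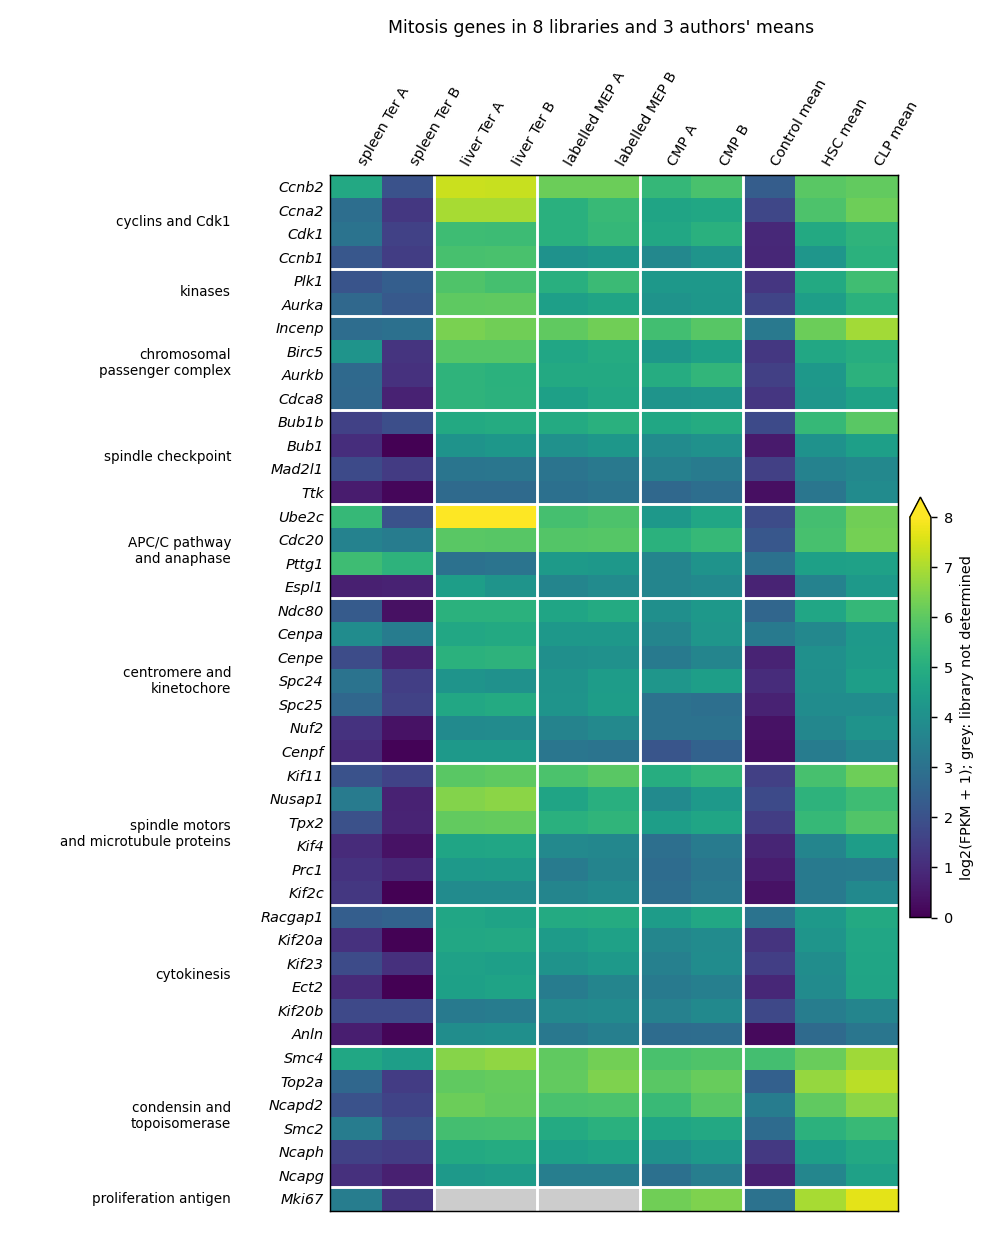
Levels of the 44 mitosis genes, in rows by role, as log2(FPKM + 1) in the 8 recovered libraries and in the authors' means of Control, HSC and CLP. The spleen Ter and Control columns are dark for nearly every gene (member medians of 1.55 to 3.34 FPKM), Pttg1 is the brightest gene of spleen Ter, and grey cells mark the libraries of Mki67 that could not be determined.

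Which members made up the mitotic RNA also differed. Mki67, the antigen stained to count proliferating cells (chr7:135689784-135716361, minus strand, GRCm38), had means of 520 FPKM in liver Ter, 203 in CLP, 137 in the population labelled MEP, 122 in HSC and 80.9 in CMP. It stood at 7.10 FPKM in Control, and at 9.43 and 1.33 FPKM in spleen Ter A and B, with 1434 and 194 fragments. The log2 ratio of its means in spleen Ter and liver Ter, taken after adding 1 FPKM and with no test, was -6.35, a larger fall than the fitted change of any tested member there, and it was -4.43 against the population labelled MEP and -3.68 against CMP. Mki67 was the most abundant member per length in 5 of the 7 populations, and in liver Ter it made up 20.5% of the members' summed FPKM. In spleen Ter the leading members were Pttg1 (17.7% of the sum), Smc4 (10.6%) and Ube2c (9.55%), and in Control Smc4 alone made up 29.8%.

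Spleen Ter was compared first with liver Ter, the cells of the same surface gate. Of 43 members tested, 42 were lower in spleen Ter and 1, Pttg1, was higher. Called means an adjusted p under 0.05 over all 13033 genes tested (limma on log2(FPKM + 1), Benjamini-Hochberg) and a change of at least 2-fold. The background was 11.7% of all genes lower and 42.8% higher. The members' median log2 fold change was -3.45, and that of all genes tested was 0.79. Against the population labelled MEP, 39 members were lower and 1 higher (background 19.5% lower and 23.2% higher), with a median of -2.82 against 0.09 for all genes. Against CMP, 36 were lower and 1 higher (background 28.2% lower and 13.9% higher), with a median of -2.23 against -0.40. These 3 comparisons share the spleen Ter libraries, so their counts are not independent of each other. The 2 libraries of spleen Ter did not overlap those of liver Ter or of the population labelled MEP for any of the 43 members, and they overlapped those of CMP for Cenpa and Ube2c. Libraries that do not overlap were common among all genes tested, at 82.6% against liver Ter, 75.3% against the population labelled MEP and 73.8% against CMP. The fit shares 1 estimate of spread over the 4 populations, and spleen Ter had the widest spread, so p-values may be too small for spleen Ter and too large for the rest.

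**Figure D3:**
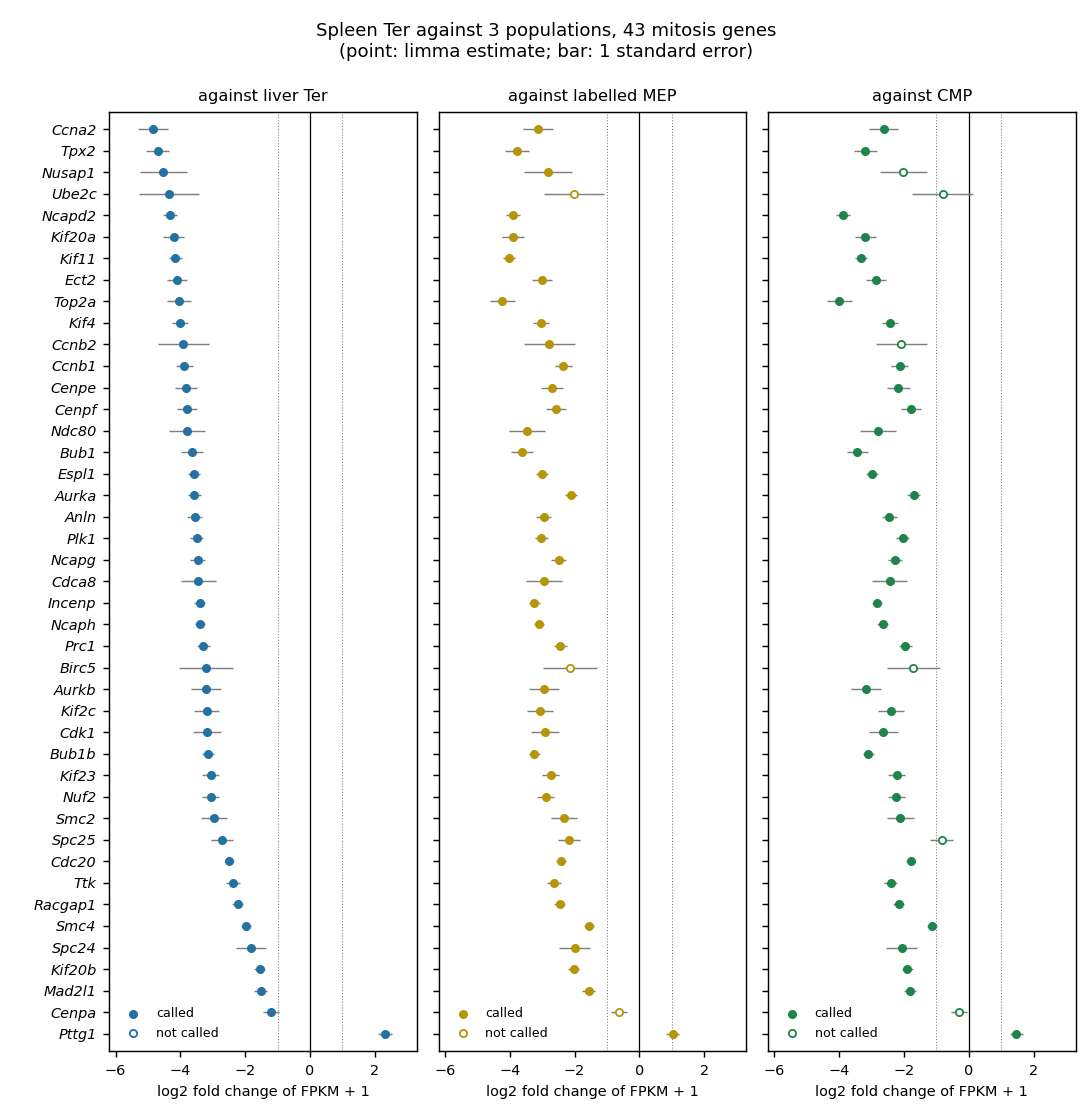
Log2 fold change of FPKM + 1 in spleen Ter against liver Ter, the population labelled MEP and CMP for 43 mitosis genes, ordered by the change against liver Ter. Points are limma estimates, bars 1 standard error, filled points are called and dotted lines mark 2-fold. Pttg1 is the only gene to the right of 0, and Birc5, Ube2c, Ccnb2 and Nusap1 have the widest bars.

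Among the entry genes, Ccna2 encodes cyclin A2 (chr3:36564865-36572150, minus strand, GRCm38), which works in S phase and at mitotic entry. It stood at 6.39 and 1.48 FPKM in spleen Ter A and B, at 123 and 123 in liver Ter, 32.8 and 41.0 in the population labelled MEP, and 24.7 and 26.2 in CMP. It had the largest fall of the 43 tested members against liver Ter, a log2 fold change of -4.86 ± 0.46 (SE, adjusted p = 0.000135, limma). Ccnb2, a cyclin B, stood at 27.7 and 3.05 FPKM in spleen Ter, at 163 and 160 in liver Ter, 73.1 and 72.6 in the population labelled MEP, and 39.0 and 50.6 in CMP. The 2 spleen Ter libraries differed 9.06-fold for Ccnb2, and its change against CMP, -2.08 ± 0.79, was not called (adjusted p = 0.06, limma). Ccnb1 and Cdk1, the main cyclin B and its kinase, were called lower in spleen Ter in all 3 comparisons, with log2 fold changes of -3.89 and -3.18 against liver Ter. Cdk1 stood at 7.32 and 1.94 FPKM in spleen Ter and 44.4 and 43.3 in liver Ter, and the CHR core at -15 printed above lies in its promoter. The kinases Plk1 and Aurka, which drive spindle assembly, were called lower in each comparison (-3.50 and -3.57 against liver Ter). Plk1 stood at 3.22 and 4.19 FPKM in spleen Ter, at 55.1 and 49.1 in liver Ter, 31.8 and 43.1 in the population labelled MEP, and 18.2 and 18.2 in CMP, so here library B of spleen Ter was not the lower of the pair. Aurka stood at 5.57 and 3.67 FPKM in spleen Ter, at 64.3 and 65.0 in liver Ter, 21.6 and 24.4 in the population labelled MEP, and 16.2 and 17.8 in CMP.

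The chromosomal passenger complex, which corrects faulty attachments, joins Aurkb to Incenp, Birc5 and Cdca8. All 4 of its genes were called lower than in liver Ter, with log2 fold changes from -3.45 to -3.21, and 3 of 4 were called against the population labelled MEP and against CMP. Cdca8 lost its call against CMP without CMP library B and with only spleen Ter and CMP in the fit. Incenp stood at 6.30 and 6.82 FPKM in spleen Ter, at 82.8 and 75.6 in liver Ter, 65.1 and 76.0 in the population labelled MEP, and 46.6 and 59.7 in CMP. Birc5, survivin, stood at 16.8 and 1.31 FPKM in spleen Ter, at 58.5 and 58.6 in liver Ter, 25.6 and 29.0 in the population labelled MEP, and 18.0 and 22.2 in CMP. Its call against liver Ter was lost when either liver Ter library was left out and with only these 2 populations in the fit. Its change against CMP was -1.71 ± 0.82 and was not called (adjusted p = 0.118, limma). The 4 spindle checkpoint genes, which delay anaphase, were called lower in each of the 3 comparisons. Bub1 stood at 1.08 FPKM in spleen Ter A and had 0 fragments in B, which allows up to 0.0474 FPKM, against 16.3 and 17.7 in liver Ter, 15.6 and 17.9 in the population labelled MEP, and 13.6 and 15.6 in CMP. Its change against CMP, -3.43, was the third largest there. Bub1b, the BubR1 kinase, stood at 1.95 and 2.75 FPKM in spleen Ter and at 26.0 to 32.5 in the 6 libraries of the other populations. Mad2l1, which binds the APC/C activator, changed least of the 4 (-1.53 ± 0.19 against liver Ter, adjusted p = 0.000511, limma). Ttk, the Mps1 kinase, had population means of 0.253 to 13.6 FPKM.

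Ube2c, the ubiquitin-conjugating enzyme of the APC/C (chr2:164769898-164778822, plus strand, GRCm38), was the member whose log2(FPKM + 1) level differed most between the 2 spleen Ter libraries. It stood at 39.9 and 3.04 FPKM in spleen Ter A and B, from 1567 and 115 fragments, 260 and 262 in liver Ter, 49.2 and 53.3 in the population labelled MEP, and 18.1 and 25.5 in CMP. Spleen Ter A lay above both CMP libraries and B below them, and the change against CMP was -0.81 ± 0.93 (adjusted p = 0.488, limma). Against liver Ter the log2 fold change was -4.35 ± 0.93 (adjusted p = 0.00551, limma), a call that was lost with only these 2 populations in the fit. Cdc20, which activates the complex, stood at 10.7 and 9.20 FPKM in spleen Ter, at 61.5 and 59.6 in liver Ter, 56.6 and 58.9 in the population labelled MEP, and 33.7 and 40.3 in CMP, with a log2 fold change of -2.49 against liver Ter. Espl1, separase, stood at 0.629 and 0.695 FPKM in spleen Ter and 21.2 and 16.7 in liver Ter (-3.58 ± 0.18, adjusted p = 1.26e-05, limma).

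Pttg1, securin, the inhibitor of separase (chr11:43420250-43426251, minus strand, GRCm38), went the other way. It stood at 44.9 and 34.7 FPKM in spleen Ter, from 1357 and 1010 fragments, 6.92 and 7.36 in liver Ter, 19.4 and 18.3 in the population labelled MEP, and 11.5 and 16.1 in CMP. The authors' means were 22.2 FPKM in HSC, 23.0 in CLP and 6.95 in Control. Both spleen Ter libraries lay above all 6 other libraries, and no other member showed this. The log2 fold change of spleen Ter was 2.32 ± 0.21 against liver Ter (adjusted p = 0.000107), 1.03 ± 0.21 against the population labelled MEP (adjusted p = 0.00516) and 1.47 ± 0.21 against CMP (adjusted p = 0.00115), all by limma. The call against the population labelled MEP was lost with median-of-ratios scaling or quantile normalization, without spleen Ter library A and without library B of the population labelled MEP. Per length, Pttg1 had a mean of 39.8 FPKM in spleen Ter and its target Espl1 0.662, while in liver Ter Espl1 was the higher of the pair, at 18.9 against 7.14 FPKM. The RefSeq window of Pttg1 has neither a TTTGAA nor a CCAAT match. That window lies inside the annotated gene, because its RefSeq start site is downstream of the annotated 5′ end at 43426251. Sequence before the annotated end was not searched, so whether these motifs occur there was not tested.

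Centromere and kinetochore genes numbered 7. All were called lower than in liver Ter, 6 lower than in the population labelled MEP and 5 lower than in CMP. Cenpa, the histone H3 variant that marks centromeres, stood at 13.9 and 9.28 FPKM in spleen Ter, at 26.8 and 27.9 in liver Ter, 18.1 and 18.2 in the population labelled MEP, and 11.6 and 17.6 in CMP. It had the smallest fall of the tested members against liver Ter, -1.20 ± 0.25 (adjusted p = 0.00482, limma), and its change was not called against the population labelled MEP (-0.63) or CMP (-0.30). The call against liver Ter was lost without spleen Ter library B. Ndc80, the microtubule-binding arm of the kinetochore, stood at 3.94 and 0.281 FPKM in spleen Ter (131 and 9 fragments), 33.8 and 33.8 in liver Ter, 25.1 and 28.9 in the population labelled MEP, and 15.0 and 18.2 in CMP. Of its partners in the same complex, Nuf2 and Spc24 were called lower in each comparison, and Spc25 was called lower than in liver Ter (-2.72) and the population labelled MEP (-2.17) and not against CMP (-0.84, adjusted p = 0.0758, limma). Spc24 lost its call against liver Ter when either liver Ter library was left out, against the population labelled MEP without that population's library B, and against CMP without CMP library B and under median-of-ratios or quantile scaling. With only the 2 populations compared in the fit it was called in none of the 3 comparisons. Differences between these partners were not tested. Cenpe and Cenpf, a kinetochore motor and a large kinetochore protein, had log2 fold changes of -3.83 and -3.80 against liver Ter.

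Spindle motors and microtubule proteins had the lowest role median against liver Ter, -4.09 over 6 genes, all called. Tpx2, which activates Aurka on the spindle, had a log2 fold change of -4.71 ± 0.36 (adjusted p = 5.62e-05, limma). Kif11, the motor that pushes spindle poles apart, stood at 3.05 and 2.07 FPKM in spleen Ter, at 60.3 and 63.2 in liver Ter, 52.7 and 60.5 in the population labelled MEP, and 30.8 and 37.5 in CMP. Its libraries were close in each population, and its change of -4.03 against the population labelled MEP was the second largest there. Nusap1, a microtubule-bundling protein, stood at 8.99 and 0.711 FPKM in spleen Ter, at 91.3 and 97.1 in liver Ter, 24.5 and 32.4 in the population labelled MEP, and 13.1 and 18.8 in CMP. Its change against CMP, -2.02 ± 0.73, was not called (adjusted p = 0.0515, limma). Like Ccnb2, Nusap1 lost its call against the population labelled MEP when either library of that population was left out. Both also lost it with only spleen Ter and that population in the fit, and Ccnb2 lost it with no filter on low values. Kif2c and Kif4, a microtubule depolymerase and a chromosome-bound motor, and Prc1, which bundles the central spindle, stood between 0.0158 and 1.47 FPKM in the spleen Ter libraries and between 13.5 and 25.6 FPKM in those of liver Ter.

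The 6 cytokinesis genes were called lower in each of the 3 comparisons. Racgap1, part of centralspindlin, stood at 4.22 and 4.72 FPKM in spleen Ter, at 25.6 and 23.8 in liver Ter, 28.5 and 29.5 in the population labelled MEP, and 20.4 and 26.7 in CMP. Kif20a, a motor of the central spindle, stood at 1.19 and 0.0362 FPKM in spleen Ter (68 and 2 fragments), 26.7 and 27.2 in liver Ter, 20.0 and 22.9 in the population labelled MEP, and 11.8 and 13.6 in CMP. Kif20a shares 1271 exon bases with Cdc23 on the opposite strand, and whether the counting used strand is not given in the sources used here. Ccna2, Cdc20, Cdca8, Kif4, Ncapg, Nusap1, Plk1, Prc1 and Ube2c also share exon bases with an opposite-strand gene. In spleen Ter, Pdzd11 beside Kif4 (832 shared bases) had a mean of 9.53 FPKM and Rccd1 beside Prc1 (911) 2.32. Exosc9 beside Ccna2 (510) had 4.18 FPKM, and Tnnc2 beside Ube2c (592) had 0. Kif23, Ect2 and Anln (the centralspindlin motor, the activator of RhoA and the ring scaffold anillin) had log2 fold changes of -3.07, -4.10 and -3.56 against liver Ter. Kif20b, a further motor of the midbody, had the smallest fall of the group there (-1.55).

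Condensin and topoisomerase genes compact and untangle chromosomes. All 6 were called lower in spleen Ter in each comparison. Top2a (chr11:98992943-99024189, minus strand, GRCm38) stood at 5.32 and 1.66 FPKM in spleen Ter, at 65.4 and 68.3 in liver Ter, 66.2 and 87.5 in the population labelled MEP, and 60.6 and 68.8 in CMP. It had the largest fall of the 43 tested members against the population labelled MEP (-4.23 ± 0.38) and against CMP (-4.00 ± 0.38), with adjusted p-values of 0.000191 and 0.000236 (limma). Smc4, the condensin ATPase, had the second highest mean of the members in spleen Ter, at 26.1 and 21.5 FPKM against 93.4 and 100 in liver Ter, 64.8 and 77.9 in the population labelled MEP, and 50.8 and 54.5 in CMP. Its log2 fold change against CMP was -1.12 ± 0.15 (adjusted p = 0.00106, limma), and the call was lost with median-of-ratios scaling, without globin genes in the totals and without spleen Ter library B. The condensin I subunit Ncapd2 stood at 3.02 and 2.03 FPKM in spleen Ter and 73.1 and 66.0 in liver Ter (-4.34 ± 0.21), and its changes against the population labelled MEP and CMP were -3.91 and -3.87. Smc2, Ncapg and Ncaph had log2 fold changes of -2.96, -3.46 and -3.41 against liver Ter.

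The 2 spleen Ter libraries differed in the same genes. Of the 44 members 38 were higher in library A, 19 of them at least 2-fold on the log2(FPKM + 1) scale, and none was 2-fold higher in B. Over all 13033 genes tested the direction was the other way, with 538 genes 2-fold higher in A and 2341 in B. The median log2 ratio of A over B was 0.74 for the members and -0.40 for all genes. In plain FPKM, Ube2c differed 13.1-fold, Birc5 12.8-fold, Nusap1 12.6-fold and Ccnb2 9.06-fold. Larger ratios came from members with few fragments in B: Kif2c differed 93.4-fold (97 and 1 fragments), Ect2 74.1-fold (77 and 1), Kif20a 32.7-fold (68 and 2), Cenpf 18.5-fold (231 and 12) and Ndc80 14.0-fold (131 and 9). Smc4 differed 1.22-fold, Cdc20 1.17-fold and Pttg1 1.29-fold, and Bub1b, Plk1, Racgap1, Incenp, Espl1 and Kif20b were lower in A, at 0.709 to 0.988 of the level in B. In liver Ter, the population labelled MEP and CMP 0 of 43, 43 and 44 members differed 2-fold between libraries, and few of all genes did (0.629%, 0.974% and 1.93%). Erythroid markers moved with the members: 10 of 10 were higher in A, 9 of them 2-fold, with summed levels of 667 and 49.95 FPKM. Of 5 neutrophil markers with both spleen Ter libraries recovered, 3 were 2-fold higher in A and 0 in B (1655 and 248 FPKM). Neutrophil precursor markers were 2-fold higher in A for 5 of 5 (426 and 33.9 FPKM). Macrophage and monocyte markers were 2-fold higher in B for 9 of 10 (323 and 1165 FPKM). Their part in the members' difference was not tested. With library A left out, members called lower numbered 42 against liver Ter, 41 against the population labelled MEP and 41 against CMP. With library B left out they numbered 41, 39 and 35.

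**Figure D4:**
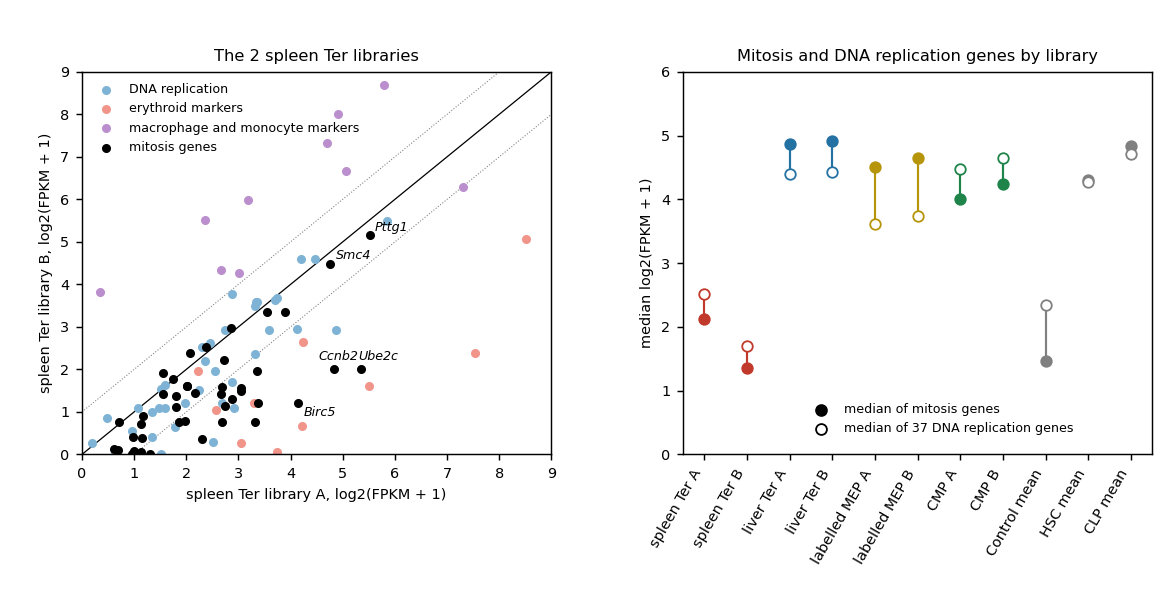
Left, log2(FPKM + 1) of mitosis genes, DNA replication genes and marker genes in the 2 spleen Ter libraries, with the line of equality and dotted lines 2-fold away. Right, medians of the mitosis genes (filled) and of 37 DNA replication genes (open) in each library and in the authors' means. Most mitosis genes (38 of 44) lie below the line, as do all erythroid markers, and the filled point lies above the open point in the population labelled MEP and in liver Ter but below it in CMP and spleen Ter.

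Liver Ter was then compared with the bone marrow populations. Against the population labelled MEP, 6 of 43 members were called higher in liver Ter (background 8.72%) and 1, Pttg1, lower (background 33.3%), with a median log2 fold change of 0.44 against -0.54 for all genes. Against CMP, 16 were higher (background 6.97%) and 0 lower (background 52.9%), with a median of 0.87 against -1.12. At an unadjusted p under 0.05, 1 of 43 members, Pttg1, was lower than in CMP (background 66.1%). Its log2 change of -0.84 became 0.84 with median-of-ratios scaling, 0.33 after quantile normalization and 0.000124 without globin genes in the totals, and it was called lower without CMP library A. Both comparisons share the liver Ter libraries. Ube2c was 5.10-fold higher in mean FPKM than in the population labelled MEP, a log2 fold change of 2.33 ± 0.93 that was not called (adjusted p = 0.0728, limma), and 12.0-fold higher than in CMP, 3.54 ± 0.93, which was called (adjusted p = 0.012). Its libraries did not overlap in either comparison. Ccna2 was higher than in both, by 1.72 ± 0.46 (adjusted p = 0.017) and 2.23 ± 0.46 (adjusted p = 0.00402, limma). Nusap1 was higher than in CMP by 2.51 ± 0.73 (adjusted p = 0.0182, limma), and its change of 1.70 against the population labelled MEP was not called. The call of Nusap1 against CMP was lost when any of the 4 libraries was left out, and that of Ube2c without either liver Ter library or without CMP library A. Against the population labelled MEP, leaving out any 1 of the 4 libraries left 2 members called higher, with Ccna2, Cenpe, Cenpf and Ect2 lost.

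The other genes called higher than in the population labelled MEP were Aurka, Ccnb1, Cenpe, Cenpf and Ect2, by 1.09 to 1.54. Against CMP the calls took in 4 of 6 spindle motors and microtubule proteins, 3 of 6 cytokinesis genes, 3 of 7 kinetochore genes, Ube2c, Ncapg, both kinases (Plk1 and Aurka) and 2 of 4 genes of the cyclin group. The 3 cytokinesis calls, Kif20a, Ect2 and Anln, were all lost with a pseudocount of 0.1 FPKM. Those of Kif20a and Nusap1 were lost with no filter on low values. Kif20a also lost its call in a fit without the population labelled MEP. As reported, no spindle checkpoint gene and no passenger complex gene was called in either comparison. Against CMP all 4 of each group were called higher under median-of-ratios scaling, Bub1, Ttk and Incenp under quantile normalization, and Bub1, Birc5, Cdca8 and Incenp with globin genes left out of the totals. Against the population labelled MEP, Bub1 and Incenp were called higher under median-of-ratios scaling and Incenp with globin genes left out. Checkpoint genes were close in level: Bub1b stood at 27.9 and 29.2 FPKM in liver Ter, 28.7 and 32.5 in the population labelled MEP and 26.0 and 29.3 in CMP, and Ttk, Mad2l1 and Bub1 also had log2 changes between -0.28 and 0.21. Top2a, Racgap1, Kif20b and Spc24 were likewise near or below 0 against the population labelled MEP (-0.47 to -0.18), and Cdc20 was at 0.07. Aurkb was at 0.04 against CMP.

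These counts depended on how libraries were scaled. Globin transcripts made up 47.6% of all FPKM in liver Ter and 13.7% in spleen Ter, but at most 0.326% in the other 5 columns. To leave globin genes out of the totals, FPKM values were divided by the non-globin share of their population's summed FPKM. That share is of summed FPKM and not of fragments. It was the same for both libraries of a population, although erythroid markers differed between the 2 spleen Ter libraries. With globin genes left out of the totals, 26 members were called higher in liver Ter than in the population labelled MEP (background 18.1%) and 34 higher than in CMP (background 12.2%). With quantile normalization the counts were 12 and 30 (background 18.0% and 16.1%), and with median-of-ratios scaling 29 and 41 (background 21.0% and 20.7%). Pttg1 was not called lower in any of these. Scaling moved the median of all genes from -0.54 to between -0.11 and 0.00 against the population labelled MEP, and from -1.12 to between -0.62 and -0.07 against CMP. Relative to the median of all genes, the members' median lay 0.98 higher against the population labelled MEP as reported and 0.84 to 1.58 higher under the other scalings. Against CMP it lay 1.98 higher as reported and up to 2.73 higher under the others. For spleen Ter against liver Ter, the population labelled MEP and CMP, the members' median minus that of all genes was -4.23, -2.91 and -1.83 as reported. Under the other scalings it was -4.67 to -4.02, -2.91 to -2.86 and -1.90 to -1.62. Among all genes called between spleen Ter and liver Ter, 78.5% were higher in spleen Ter as reported and 50.3% to 65.2% under the other scalings, while 42 members were called lower and Pttg1 higher under each. The background there was 24.0% lower and 27.1% higher with median-of-ratios scaling, 23.9% and 24.2% after quantile normalization, and 18.4% and 34.5% without globin genes in the totals. The share higher in the first population moved from 33.1% to 39.7%, 44.1% and 56.9% for spleen Ter against CMP, from 20.8% to 43.5%, 46.1% and 48.0% for liver Ter against the population labelled MEP, and from 11.6% to 25.0%, 43.4% and 50.6% against CMP. Between the population labelled MEP and CMP it moved from 23.1% to 48.6% with quantile normalization and 61.0% with median-of-ratios scaling.

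**Figure D5:**
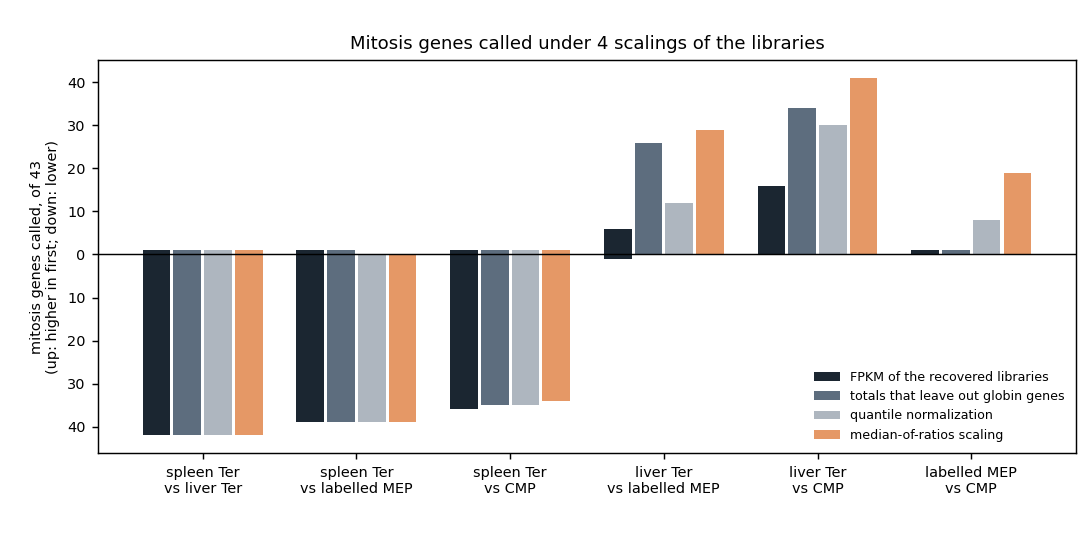
Number of the 43 tested mitosis genes called in each comparison under 4 scalings, with genes higher in the first population drawn upward and genes lower in it downward. The spleen Ter comparisons change little (34 to 42 lower), and the comparisons among liver Ter, the population labelled MEP and CMP range from 6 to 29, 16 to 41 and 1 to 19 higher.

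Between the population labelled MEP and CMP, 1 member was called higher in the former (background 7.33%) and 0 lower (background 24.3%). At an unadjusted p under 0.05, 0 of 43 were lower in the population labelled MEP (background 41.0%). The called gene was Spc25, at 16.6 and 21.1 FPKM against 7.05 and 6.59 (log2 fold change 1.33 ± 0.34, adjusted p = 0.0189, limma), and this call was lost when any of these 4 libraries was left out. Ube2c and Plk1 had log2 changes of 1.22 and 0.98. Espl1, Ncapd2 and Spc24 had the smallest, 0.01, 0.04 and -0.07, and Aurkb and Mad2l1 were both at -0.24. The members' median was 0.44 and that of all genes -0.41. Under median-of-ratios scaling 19 members were called higher (background 14.4%), and under quantile normalization 8 (background 11.8%). DNA replication genes stood otherwise: 15 of 37 were called lower in the population labelled MEP and 0 higher, with a median of -0.85. Mcm6 and Mcm3, subunits of the replicative helicase, stood at 32.9 and 39.4 and at 34.6 and 39.6 FPKM in the population labelled MEP, and at 136 and 118 and at 122 and 112 in CMP. On the log2 scale the members' median stood above the replication median by 0.88 and 0.92 in the 2 libraries of the population labelled MEP and by 0.47 and 0.49 in liver Ter. The same difference was -0.47 and -0.40 in CMP and -0.40 and -0.35 in spleen Ter. This difference between the gene sets was not tested.

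Control, HSC and CLP have 1 authors' mean each, so the following ratios have no test. Spleen Ter and Control, both from the spleen of tumour-bearing mice, were close. Of the 34 members with at least 1 FPKM in either, 8 had a spleen Ter level 2-fold higher or more (background 13.5%) and 2 lower (background 28.4%) on the log2(FPKM + 1) scale, with a median log2 ratio of 0.39 against -0.32 for all genes. Ube2c had the largest ratio, at 21.5 FPKM in spleen Ter and 2.63 in Control, followed by Pttg1 (39.8 and 6.95) and Birc5 (9.03 and 1.46). In spleen Ter A and B, Ube2c stood at 39.9 and 3.04 FPKM and Birc5 at 16.8 and 1.31, so the ratios of these genes rest on library A. Pttg1 stood at 44.9 and 34.7 FPKM, above Control in both libraries. The 2 lower members were Ncapd2 (2.53 and 9.25 FPKM) and Ndc80 (2.11 and 5.29). With spleen Ter library A left out the median ratio was -0.11, so its sign rests on that library. Against HSC and CLP, 42 of 44 members were at least 2-fold lower in spleen Ter in each (background 34.1% and 35.9%), and 0 were higher (background 14.2% and 15.5%). The medians were -2.53 and -3.05. Control showed the same size of difference, with 42 members lower than in HSC (background 16.2%) and 44 lower than in CLP (background 17.0%), medians -2.97 and -3.55, and 0 higher in either (background 10.5% and 11.1%).

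HSC and CLP differed little. No member was 2-fold apart (background 2.45% lower and 3.09% higher in HSC), and the median log2 ratio was -0.53. All 44 ratios lay below 0, from -0.91 to -0.01, while the median of all genes was -0.04. Top2a stood at 106 FPKM in HSC and 143 in CLP, Ube2c at 47.4 and 75.6, Kif11 at 49.7 and 74.3, and Pttg1 at 22.2 and 23.0. The labels put HSC and CLP in the same bone marrow with overlapping gates, so this order is a description of 2 means.

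Mitosis genes outside the set were examined from 5 further lists, 110 genes in all, 109 of them tested. Against liver Ter, 75 were called lower in spleen Ter (background 11.7%) and 3 higher (background 42.8%), and their median log2 fold change was -1.97 against 0.79 for all genes. Against the population labelled MEP 72 were lower (background 19.5%) and 2 higher (background 23.2%), with a median of -1.74 against 0.09. Against CMP 77 were lower (background 28.2%) and 1 higher (background 13.9%), with a median of -1.64 against -0.40. The same backgrounds apply to each list that follows. Spindle and cytokinesis genes were lower for 23, 25 and 24 of 25 in these comparisons, led by the minus-end motor Kifc1 in each (-4.90, -4.43 and -3.46) and by Kif18b against liver Ter (-4.82) and the population labelled MEP (-4.11) and Ckap2l against CMP (-3.32). Entry kinases and phosphatases were lower for 10, 11 and 11 of 13, among them Ccnf (-4.77 against liver Ter), Cdc25b (-4.44 against liver Ter), Cdc25a (-3.12 against the population labelled MEP), Wee1 and Nek2 (-3.23 and -2.58 against CMP). Kinetochore and centromere genes were lower for 26, 21 and 22 of 33. Dlgap5 and Kntc1 led against liver Ter (-4.22 and -3.72), Kntc1 and Hjurp against the population labelled MEP (-3.39 and -3.28), and Kntc1 and Zwilch against CMP (-3.31 and -2.97). Cohesin and condensin II genes were lower for 9, 9 and 10 of 15, with Sgo1 and Ncapg2 leading against liver Ter (-3.56 and -3.44), Ncapd3 and Cdca5 against the population labelled MEP (-2.71 and -2.67) and Cdca5 and Ncapg2 against CMP (-2.82 and -2.38). Checkpoint and mitotic exit genes, many of them APC/C subunits, were lower for 7, 6 and 10 of 23 and higher for 3, 2 and 1, which for the lower genes is nearer to the backgrounds of 11.7%, 19.5% and 28.2% than in the other 4 lists. Their median against liver Ter was -0.04, and Fbxo5 and Fzr1, an inhibitor and an activator of the APC/C, led there (-3.24 and -3.21). Fbxo5 and Trip13 led against the population labelled MEP (-2.54 and -1.97), and Trip13 and Anapc1 against CMP (-2.49 and -2.08).

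Transcription factors that bind mitotic promoters were lower in spleen Ter for 11, 11 and 10 of 18. The repressor E2f8 stood at 0.936 and 0.0505 FPKM in spleen Ter, at 37.3 and 36.3 in liver Ter, 33.4 and 33.2 in the population labelled MEP, and 25.8 and 28.4 in CMP. Foxm1, an activator of G2 and M phase genes, stood at 0.518 and 0.108 FPKM in spleen Ter and at 26.2 and 31.8 in the population labelled MEP (-4.53 ± 0.22). E2f2 stood at 12.5 and 2.89 FPKM in spleen Ter and 195 and 179 in liver Ter (-4.70 ± 0.51). Nfya, the subunit of NF-Y that reads the CCAAT box printed above, stood at 0.941 and 0.414 FPKM in spleen Ter and 25.8 and 21.3 in CMP (-3.88 ± 0.26). DNA replication genes were lower for 30, 25 and 34 of 37 and higher for 0 in each, with medians of -2.18, -1.54 and -2.56. Rrm2 and Uhrf1 led against liver Ter (-4.44 and -3.90), and Chaf1a and Uhrf1 against the population labelled MEP (-3.38 and -3.29) and CMP (-4.10 for both). Genes linked to cell cycle exit went both ways. Of 11 tested, 3 were lower and 4 higher than in liver Ter (background 11.7% and 42.8%), 3 and 1 against the population labelled MEP (background 19.5% and 23.2%), and 2 and 4 against CMP (background 28.2% and 13.9%). With so few genes these counts are not read as a pattern of the list. Btg1, an antiproliferative gene, stood at 221 and 249 FPKM in spleen Ter, at 4.33 and 4.52 in liver Ter, 65.5 and 59.4 in the population labelled MEP, and 36.8 and 27.0 in CMP, and was called higher in each comparison. Foxo3 was lower than in liver Ter (-3.95), Cdkn2c lower than in the population labelled MEP (-2.15) and Cdkn2d, an inhibitor of cyclin D kinases, higher than in CMP (1.76).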

How the data were processed

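The authors deposited 1 table with a column for each of 7 sorted populations, read here as the mean FPKM of its 2 samples. The submitters' processing notes name the mm10 build. The sources used here do not give the unit label, aligner, counter, annotation or strand setting. FPKM was read from the values of CMP, MEP and the 2 Ter populations and assumed for Control, HSC and CLP. Of 49583 genes, 49324 matched GENCODE M21. In the columns of CMP, MEP and the 2 Ter populations, whole-fragment steps gave both libraries behind each mean for 13838 of the 14049 genes whose mean reached 1 FPKM (98.5%). Member lengths were annotated for 37 genes and taken from the steps for 7. Depths were 13413530 to 28537889 fragments. Such counts are reconstructions, so no count model was run.

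The 13033 genes that reached 1 FPKM in 2 libraries were tested on log2(FPKM + 1), a scale that understates changes of low genes, with limma 3.58.1 in R 4.3.3 and Benjamini-Hochberg adjustment, in 1 fit of 8 libraries (4 residual degrees of freedom). A gene was called at an adjusted p under 0.05 and a 2-fold change. Ratios of means used the same added 1 FPKM. Python 3.11.15, numpy 2.4.6 and pandas 2.3.3 were used, and recovery and testing were tested on simulated data. The text names the 2 most abundant members of each role, the 3 largest and 3 smallest changes of each tested comparison, members against the majority, and the 2 largest called changes of each further list. Members and lists were chosen with earlier results of these data known. Alternatives covered the pseudocount, the filter, scaling, the libraries in the fit and leaving out each library. Ptprc and Azu1 are not analysed here.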

Additional observations from a re-analysis of the deposited data

How the results depend on the processing

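No paired analysis was possible because the recovered libraries carry no replicate numbers. The spread rests on 2 libraries per population, and the cause of each shift below was not tested. Members called numbered 7 between liver Ter and the population labelled MEP, and 4 with no filter on low values, 29 under median-of-ratios scaling, 12 after quantile normalization, 26 with globin genes out of the totals, 11 with only these populations in the fit, 11 in a fit without spleen Ter (an alternative chosen after seeing the data), and 3 to 3 with a library left out. Against CMP the 16 became 13 with a pseudocount of 0.1 FPKM, 14 with no filter on low values and 15 in a fit without the population labelled MEP. They became 41, 30 and 34 under the 3 scalings, 19 with only these populations in the fit and 19 without spleen Ter. Between the population labelled MEP and CMP, 1 became 2 with a pseudocount of 0.1 FPKM, 19 and 8 under median-of-ratios and quantile scaling, 2 with only these populations, 2 without spleen Ter, and 0 to 1 with a library left out.

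The members' median log2 change of spleen Ter against liver Ter, -3.45, was -4.08 with the pseudocount of 0.1, -4.55, -4.02 and -4.22 under the 3 scalings (median-of-ratios, quantile, no globin, in this order below), and -3.83 to -3.11 with a library left out. Against the population labelled MEP it was -3.37 with that pseudocount and -3.19 to -2.32 with a library left out. Against CMP it was -2.99 with that pseudocount, -1.59 with median-of-ratios scaling and -2.74 to -1.85 with a library left out. For liver Ter against the population labelled MEP it was 1.54, 0.84 and 1.37 under the scalings and 0.31 to 0.57 with a library left out. Against CMP it was 2.66, 1.86 and 1.79, and 0.82 to 1.04. Between the population labelled MEP and CMP it was 1.13 and 0.84 under the first 2 scalings. The median ratio of spleen Ter was -0.11 to 0.58 against Control, -3.23 to -2.12 against HSC and -3.73 to -2.75 against CLP with a library left out, and -3.67 against CLP with the smaller pseudocount. That pseudocount gave -3.82 for Control against HSC and -4.39 against CLP. Members 2-fold apart between spleen Ter and Control numbered 10 to 16 with a library left out.

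Signs reversed for the following members. Liver Ter against the population labelled MEP, under the 3 scalings, gave Bub1b 0.98, 0.38 and 0.81, Kif20b 0.55, 0.26 and 0.39, Mad2l1 0.98, 0.71 and 0.82, Racgap1 0.85, 0.28 and 0.68, Spc24 0.88, 0.41 and 0.71, Top2a 0.91, 0.0197 and 0.74, and Ttk 0.73, 0.56 and 0.57. Liver Ter against CMP gave Kif20b 1.35, 0.81 and 0.52, Mad2l1 1.39, 0.93 and 0.57, Pttg1 0.84, 0.33 and 0.000124, Spc24 1.51, 0.70 and 0.64, and Ttk 1.56, 1.29 and 0.80. The population labelled MEP against CMP gave Aurkb 0.48 and 0.0337, Mad2l1 0.41 and 0.21 and Spc24 0.63 and 0.28 under the first 2, and spleen Ter against CMP gave Cenpa 0.25 and 0.0261. With 1 library left out, values crossed 0 for Bub1 (-0.0755 to 0.119), Mad2l1 (-0.108 to 0.0376) and Top2a (-0.383 to 0.0148) between liver Ter and the population labelled MEP, and for Aurkb (-0.114 to 0.186), Bub1b (-0.0379 to 0.129) and Ttk (-0.117 to 0.0608) against CMP. They did so for Espl1 (-0.0953 to 0.121), Ncapd2 (-0.202 to 0.286) and Spc24 (-0.229 to 0.088) between the population labelled MEP and CMP, and for Ube2c (-2.48 to 0.863) in spleen Ter against CMP. Among all other values of named members, 563 held their direction and call, 25 lost the call and 21 gained it.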
